A study of Mus musculus with 4 samples.

Results

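The homeobox genes Hoxa5, Hoxa7, Hoxa9 and Hoxa10 and the genes of their DNA-binding partners Meis1, Pbx2 and Pbx3 were followed in granulocyte/monocyte progenitors (GMP) that lack Icsbp or carry it. Every probe set was taken whose platform gene symbol is 1 of these 7 names. That gave 15 probe sets of the 45101 on the Affymetrix MOE430_2 array, of which 10 were also among the 22690 of the 430A array and 5 were on the MOE430_2 array alone. A probe set is the group of short probes that reads 1 transcript or a few alike ones.

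Hoxa proteins are homeodomain transcription factors whose genes lie side by side in a cluster. In blood formation the posterior members, Hoxa9 above all, are known for high expression in stem and early progenitor cells, and they are shut down as myeloid cells mature. Meis and Pbx proteins belong to another homeodomain class, called TALE, and bind DNA together with Hox proteins. Hoxa9 and Meis1 kept on together are known to drive myeloid leukaemia in mice. Icsbp, also named Irf8, is an interferon regulatory factor with roles in monocyte and granulocyte development.

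The Icsbp-deficient group held 2 GMP preparations of mice without Icsbp (Irf-8), and the wild type group held 2 of wild type mice. Each group had 1 preparation on each array type. Each preparation pooled marrow of at least 8 Icsbp-deficient or at least 10 wild type mice aged 10 to 16 weeks, and the cells were purified by flow cytometry. The mixed C57/Bl6 and S129Ola background is named for the wild type 430A sample only. That sample's own label gives no genotype, and it counts as wild type through the series' design text. The sources used here give neither the deleted part of Icsbp nor the strain of the other 3 samples.

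Signals below, unless a ratio is named, are scaled so that every array has the same mean of 500 after trimming 2% from each end, over the 22626 shared probe sets that are not controls. Before scaling, the trimmed means were 167.1 and 158.6 on the Icsbp-deficient 430A and MOE430_2 arrays, against 498.5 and 160.4 on the wild type ones. Signals of different probe sets are not set against each other, since each set of probes binds its target with its own strength. The targeted gene was not lost from the signal: Irf8 probe set 1416714_at was at 2776 and 2725 in Icsbp-deficient GMP, against 3059 and 4798 in wild type GMP, and 1448452_at was at 3234 and 1892 against 3074 and 1847. Without knowing which part of the gene was removed, this checks no label. All 10 GMP markers passed the filter on low signals, among them the azurophil granule genes Mpo, Elane, Prtn3 and Ctsg.

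Hoxa9 was lower in Icsbp-deficient GMP. Its probe set 1455626_at read 212.1 (430A) and 318.7 (MOE430_2) in Icsbp-deficient GMP, against 621.2 and 1053.4 in wild type GMP. Within each array type the Icsbp-deficient value lay below the wild type value. On the log2(signal + 50) scale the Icsbp-deficient over wild type ratio was -1.38 for the 430A pair and -1.55 for the MOE430_2 pair. The added 50 makes ratios of weak signals smaller. The mean was -1.47 ± 0.15 (moderated standard error, n = 2 ratios), which is 2.76-fold lower, with a limma adjusted p of 0.000741. In RNA of whole cell preparations, fewer cells with the transcript and less transcript per cell cannot be told apart.

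The other Hoxa9 probe set, 1421579_at, pointed the same way by less. It read 394.9 (430A) and 146.3 (MOE430_2) in Icsbp-deficient GMP, against 602.2 and 254.3 in wild type GMP. The Icsbp-deficient array was the lower one of each type, although the groups overlapped across types. The ratios were -0.57 and -0.59, and their mean of -0.58 ± 0.16 (1.49-fold lower) did not pass the test, with a limma adjusted p of 0.077. The probe sequences that would place the 2 probe sets on the transcript were not used here.

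Of the 6 member probe sets that passed the filter on low signals, 1 was called lower and 0 were called higher by limma at an adjusted p under 0.05. Among all 13576 tested probe sets, 2.14% were called lower and 2.99% higher. At an unadjusted p under 0.05 the members' counts were 3 lower and 1 higher, where 9.27% of all tested probe sets were lower and 9.31% higher. The 3 are both Hoxa9 probe sets and Pbx3 1421193_a_at, thus 2 genes, and the higher one is Pbx2 1418894_s_at. The Pbx3 probe set passed the filter only through its wild type signals, so its place in the lower count is partly set by the filter. Probe set 1455626_at of Hoxa9 was called in each of the 8 alternative settings that kept array type as a block, with an adjusted p from 6.55e-05 to 0.00954. It was not called without the block (adjusted p = 0.777). With 1 array left out its log2 ratio ran from -1.81 to -1.12. Leaving out 1 array, which also drops the block, ended the call without the Icsbp-deficient 430A array (adjusted p = 0.305) and without the wild type MOE430_2 array (adjusted p = 1), but not without the Icsbp-deficient MOE430_2 array (0.0373) or the wild type 430A array (0.0206).

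**Figure D1:**
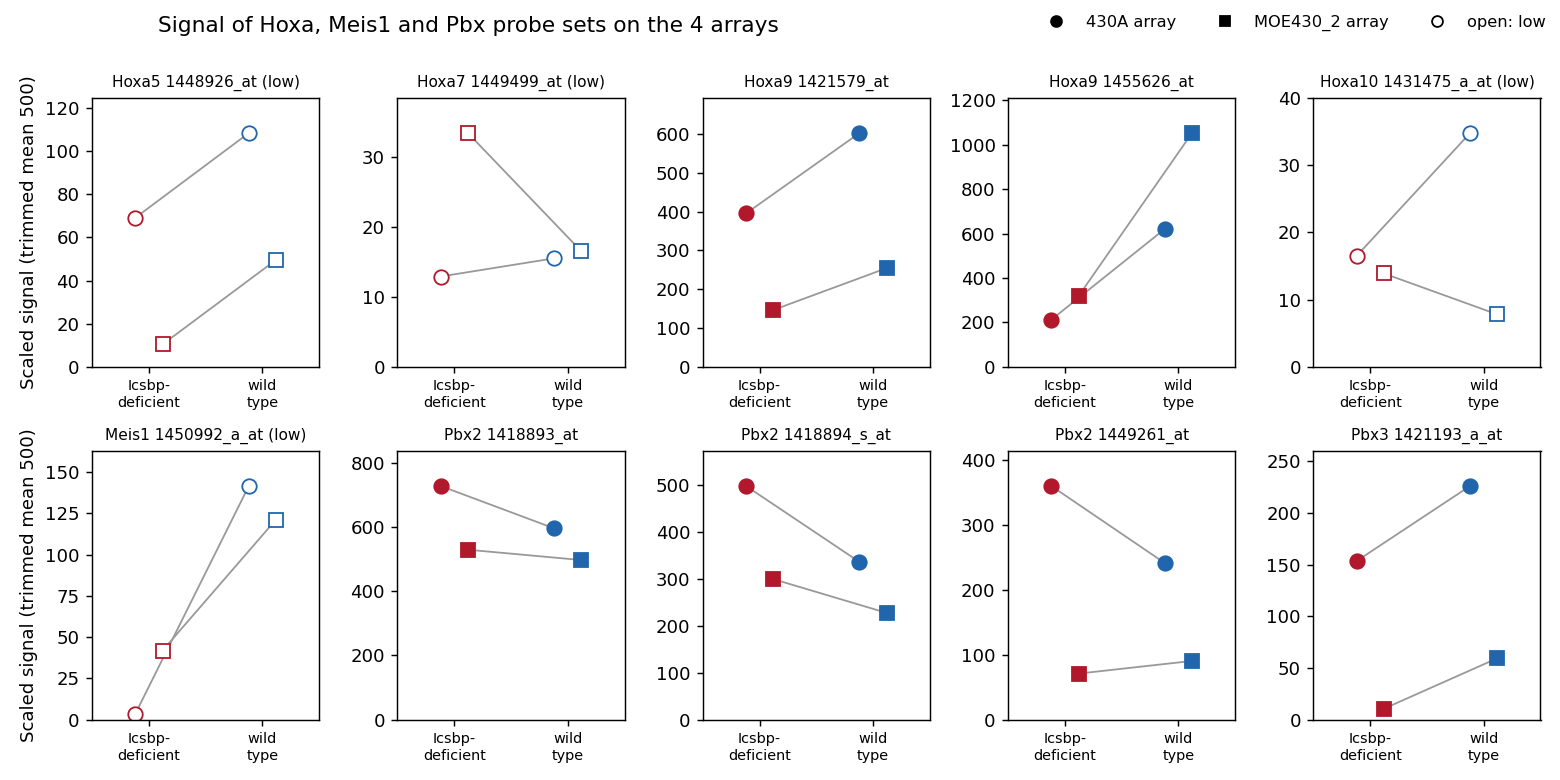
Scaled signal (y axis, linear from 0, own scale in each panel) of the 10 member probe sets on both array types, with Icsbp-deficient GMP left of wild type GMP, circles for the 430A and squares for the MOE430_2 array. Each point is 1 array, lines join arrays of 1 type, and open symbols mark probe sets under the filter; Hoxa9 1455626_at reads 212.1 and 318.7 in Icsbp-deficient GMP and 621.2 and 1053.4 in wild type GMP.

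Markers of other cell types also differed between the groups, some lists in the direction of Hoxa9 and some in the opposite one. Among all 7820 tested genes, each represented by the brightest of its tested probe sets, 2.34% were called lower and 3.26% higher, and at an unadjusted p under 0.05 the shares were 9.95% lower and 9.55% higher. Of the stem and multipotent progenitor list, which also holds Cd34, 10 of 12 genes were on shared probe sets and 6 were tested, of which 3 fell (Cd34, Gata2 and Tal1). Its summed signal was 1927 and 1460 in Icsbp-deficient GMP, against 4740 and 4481 in wild type GMP. Cd34 alone made up the largest part of these sums, at 819.4 and 810.8 against 2625 and 3032. Hlf, Slamf1 and Flt3 were tested and not called, while Angpt1, Mecom, Procr and Tek were under the filter. Of 10 eosinophil, basophil and mast cell genes 7 were tested and 7 fell (Cpa3, Prg2, Epx, Fcer1a, Ms4a2, Hdc and Mcpt8), with sums of 2091 and 2244 in Icsbp-deficient GMP, against 5594 and 8719 in wild type GMP. Fcer1a, at 51.5 and 24.9 in Icsbp-deficient against 231.8 and 384.6 in wild type GMP, passed the filter only through its wild type signals. So did Ms4a2, at 128.9 and 35.9 against 321.7 and 326.3, and the filter thus favoured a fall for both. Of 11 maturing neutrophil genes 11 were tested and 9 rose (S100a8, S100a9, Ltf, Ngp, Mmp8, Camp, Lcn2, Chil3 and Cd177), with sums of 35683 and 67890 in Icsbp-deficient GMP, against 11839 and 21449 in wild type GMP.

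Erythroid and megakaryocyte genes fell in 3 of 8 tested cases (Car1, Car2 and Itga2b), with sums of 1472 and 546 in Icsbp-deficient GMP, against 2482 and 2501 in wild type GMP. Car1 also entered the test through its wild type signals, 202.1 and 472.5, against 43.1 and 2.5 in Icsbp-deficient GMP. Of 13 lymphoid genes 3 were tested and 0 called, with 2 higher at an unadjusted p under 0.05, and the sums were 1289 and 934 in Icsbp-deficient GMP, against 954 and 759 in wild type GMP. Of these 2, Vpreb1 passed the filter only through its Icsbp-deficient signals, 117.9 and 103.4, against 81.7 and 32.4 in wild type GMP. Of the 10 GMP markers 3 rose, Fcgr3, Cebpa and Csf2ra, and 0 fell, with sums of 81188 and 137032 in Icsbp-deficient GMP, against 75339 and 108216 in wild type GMP. The sums of all these lists add scaled signals before quantile normalization, so the brightest genes weigh most. After normalization the bright Mpo, Elane, Prtn3 and Ctsg had mean log2 ratios of -0.02, 0.05, -0.02 and 0.01 and were not called. The part of these lists in the Hoxa9 difference was not tested.

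Because Hoxa9 carries the called difference and Icsbp binds DNA, the bases just before its start are shown, beside those of Hoxa5. Among the 6 members with a promoter window, Hoxa5 is the only other with a match to a searched element. Pbx3 had no window and was not searched. The sequences come from RefSeq (GRCm38.p6), 250 bases before the start, 5′ to 3′ on the strand of the gene. Hoxa9 is at chr6:52227371-52227620 on the minus strand and Hoxa5 at chr6:52204588-52204837 on the minus strand. Capitals mark the matched element.
Hoxa9: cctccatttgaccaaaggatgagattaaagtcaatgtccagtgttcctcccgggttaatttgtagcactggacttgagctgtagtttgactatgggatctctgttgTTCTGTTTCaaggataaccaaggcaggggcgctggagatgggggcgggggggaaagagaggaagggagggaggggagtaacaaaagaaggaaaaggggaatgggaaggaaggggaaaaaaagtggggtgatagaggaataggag
Hoxa5: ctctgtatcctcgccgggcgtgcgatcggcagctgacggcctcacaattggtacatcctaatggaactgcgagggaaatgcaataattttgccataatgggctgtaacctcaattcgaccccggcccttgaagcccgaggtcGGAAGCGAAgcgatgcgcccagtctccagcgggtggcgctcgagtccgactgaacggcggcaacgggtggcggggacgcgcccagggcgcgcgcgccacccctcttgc

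The Hoxa9 match is to GAAANNGAA, the core of the interferon response element, on the opposite strand and at positions -144 to -136 from the start. This core was found on either strand in 8.56% of the 32851 promoter windows of the table, each of which runs from 250 bases before to 50 after a start. The Hoxa5 match is to GGAANNGAA, the core of the composite element of ETS factors and interferon regulatory factors, at positions -108 to -100 and on the gene's strand, and 8.24% of windows hold it. The 2 cores differ at a fixed base, so the same bases cannot match both, although matches can overlap in part. TGATTNAT, bound by Pbx with Hox, and TGACAG, the Meis core, are in 3.22% and 19.2% of windows and in 0 of the 7 windows of Hoxa5, Hoxa7, Hoxa9, Hoxa10 (2 windows), Meis1 and Pbx2. The purine share of the Hoxa9 stretch, looked at after the sequence was seen, was 68.0%, a share that 0.776% of all windows reach or pass. A match is a run of letters in this window, and binding was not measured.

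Around Hoxa9 in the cluster, the other Hoxa members lay under the filter on low signals. Hoxa5, from the middle of the cluster, read 69.1 (430A) and 10.4 (MOE430_2) in Icsbp-deficient GMP with probe set 1448926_at, against 108.4 and 49.6 in wild type GMP. The Icsbp-deficient array was the lower one of each type, with log2 ratios of -0.41 and -0.71, while the groups overlapped across types. A further Hoxa5 probe set on the MOE430_2 array alone, 1443803_x_at, read 72.2 in Icsbp-deficient and 134.0 in wild type GMP, a log2 ratio of -0.59 with no replicate. The suffix x marks probes that may also bind other transcripts.

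Hoxa7, the neighbour of Hoxa9 on one side, had no common direction. Its probe set 1449499_at read 12.9 and 33.4 in Icsbp-deficient GMP, against 15.5 and 16.5 in wild type GMP, with log2 ratios of -0.04 (430A) and 0.34 (MOE430_2). Hoxa10, the neighbour on the other side and a regulator of myeloid differentiation, had no common direction either. Probe set 1431475_a_at read 16.5 and 13.9 in Icsbp-deficient GMP, against 34.8 and 7.8 in wild type GMP, with log2 ratios of -0.33 and 0.15. Hoxa10 probe set 1446408_at, on the MOE430_2 array alone, read 26.8 in Icsbp-deficient and 32.4 in wild type GMP. All of these lay under the filter or on 1 array type and were outside the main test. With no filter on low signals, limma gave Hoxa5 1448926_at a mean of -0.56 ± 0.22 (adjusted p = 0.333), Hoxa7 a mean of 0.15 ± 0.17 (0.780) and Hoxa10 1431475_a_at a mean of -0.09 ± 0.17 (0.892), none of which passes.

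Along the whole cluster 16 probe sets read 9 Hoxa genes, from Hoxa2 to Hoxa13. Of the 7 shared probe sets of the genes that are not members (Hoxa2, Hoxa3, Hoxa4, Hoxa11 and Hoxa13), 0 were at least 1.5-fold lower on both array types and 0 at least 1.5-fold higher. Among the 10 shared member probe sets these counts were 2 and 0, the 2 being Hoxa9 1455626_at and Meis1 1450992_a_at. Over all 22626 shared probe sets 1.29% were at least 1.5-fold lower on both types and 1.56% at least 1.5-fold higher. Hoxa9 1421579_at lay at this border, 1.48-fold lower on the 430A arrays and just past the border on the MOE430_2 arrays. The 1.5-fold border was set with the values known and is a description, with no test.

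**Figure D2:**
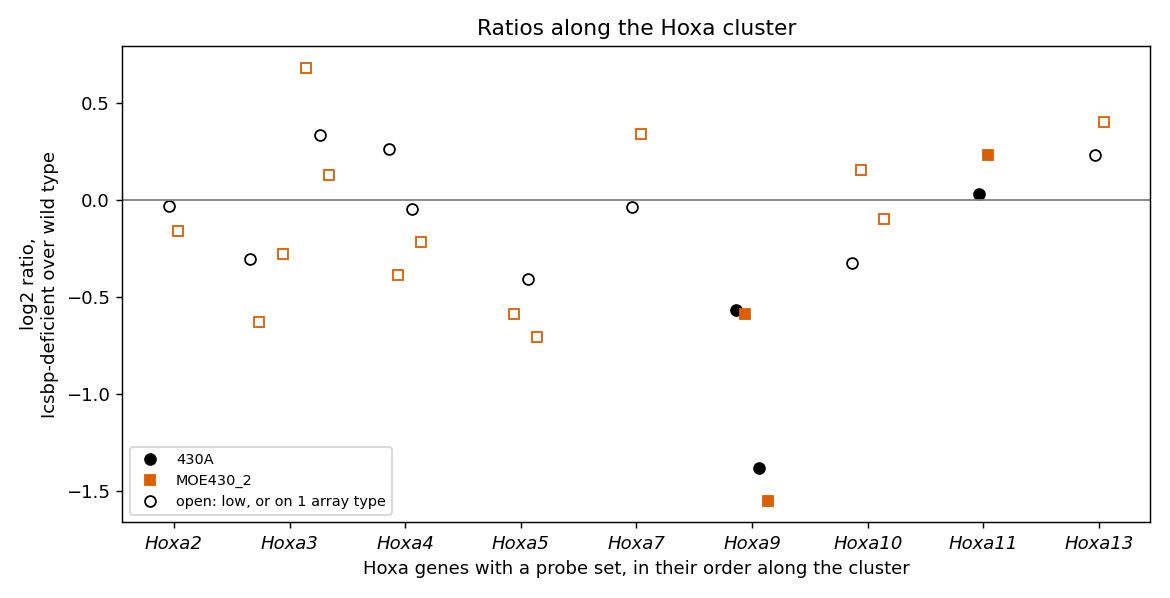
Log2 ratio of Icsbp-deficient over wild type GMP (y axis) for the 16 Hoxa probe sets, with genes along the x axis in their order in the cluster, circles for the 430A and squares for the MOE430_2 arrays, each 1 ratio of 1 array pair. Open symbols are low or on 1 array type; Hoxa9 1455626_at lies lowest on both types, at -1.38 and -1.55.

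Meis1, the TALE factor that stabilises Hoxa9 on DNA, was read by 3 probe sets. Probe set 1450992_a_at read 3.6 (430A) and 41.9 (MOE430_2) in Icsbp-deficient GMP, against 141.5 and 121.2 in wild type GMP. The wild type value was the higher of each array type, with log2 ratios of -1.84 and -0.86. Its mean signal stood at percentile 36.1 of the shared probe sets, under the filter at the 40th percentile, so it was not part of the main test. With no filter on low signals its mean was -1.35 ± 0.28 with a limma adjusted p of 0.0845, which does not pass.

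The other Meis1 probe sets are on the MOE430_2 array alone. 1443260_at read 58.6 in Icsbp-deficient and 75.1 in wild type GMP, a log2 ratio of -0.20, and 1459423_at read 51.7 and 52.4, a log2 ratio of -0.01. The 3 Meis1 probe sets therefore did not give 1 size on that array, from -0.86 to -0.01.

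Pbx2 and Pbx3 are the partners that let Hox proteins choose their DNA sites. Pbx3, which is known as a co-factor of Hoxa9 in leukaemia, read 153.5 and 10.7 in Icsbp-deficient GMP with probe set 1421193_a_at, against 226.1 and 59.5 in wild type GMP. The Icsbp-deficient array was the lower one of each type and the groups overlapped across types. The log2 ratios were -0.46 and -0.84 and the mean was -0.65 ± 0.23, with a limma adjusted p of 0.159. At percentile 42.5 the probe set was only just above the filter, which it passed only through its wild type signals. With an offset of 16 the mean was -1.002 and with the values as deposited -0.37, so its size depends on these settings. A second Pbx3 probe set on the MOE430_2 array alone, 1447640_s_at, read 46.3 in Icsbp-deficient and 73.5 in wild type GMP, a log2 ratio of -0.36.

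Pbx2 did not go the way of Hoxa9. Probe set 1418894_s_at read 497.8 and 299.5 in Icsbp-deficient GMP, against 336.0 and 227.5 in wild type GMP, higher on both array types at log2 ratios of 0.50 and 0.38. Its mean of 0.44 ± 0.16 had a limma adjusted p of 0.172. Probe set 1418893_at read 727.3 and 529.0 in Icsbp-deficient GMP, against 595.4 and 496.8 in wild type GMP, a mean of 0.18 ± 0.15 (adjusted p = 0.581). The last one, 1449261_at, read 360.5 and 71.2 against 241.6 and 90.7 in wild type GMP, with ratios of opposite sign (0.48 and -0.16) and a mean of 0.16 ± 0.21 (adjusted p = 0.754). None of the Pbx probe sets passed.

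**Figure D3:**
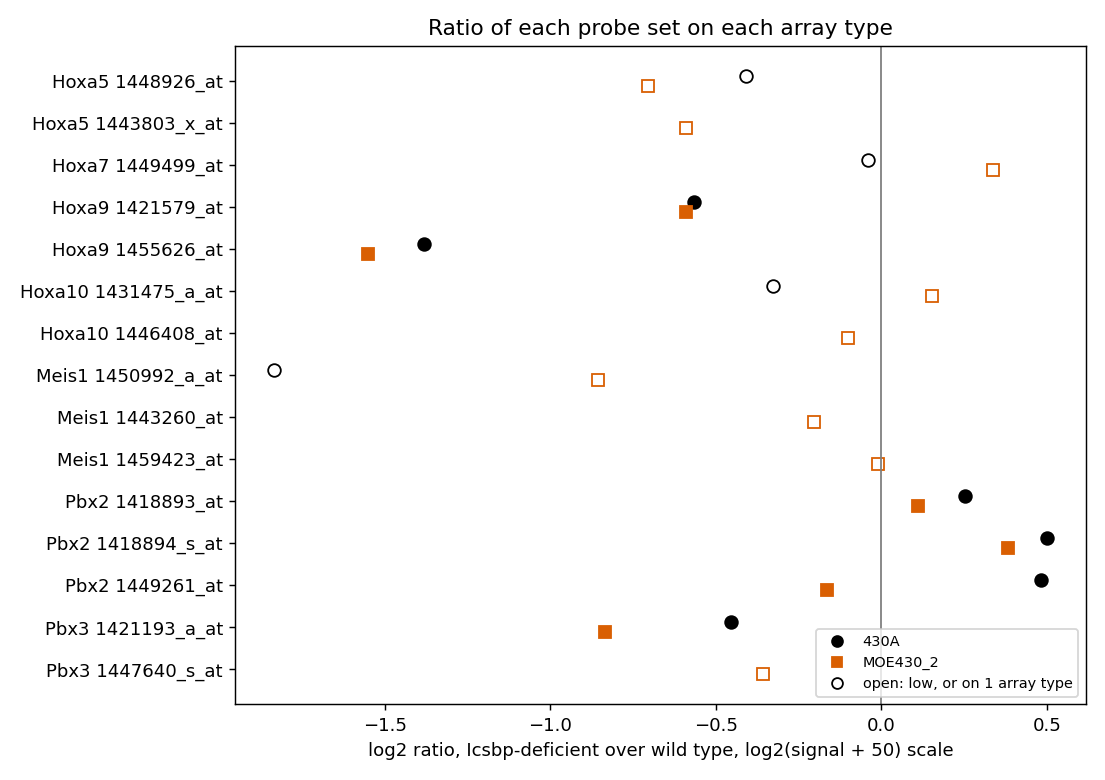
Log2 ratio of Icsbp-deficient over wild type GMP (x axis, log2(signal + 50) scale) for each of the 15 member probe sets (rows), circles for the 430A and squares for the MOE430_2 arrays, each 1 ratio of 1 array pair. Open symbols are low or on 1 array type; 5 of the 10 shared probe sets are below 0 on both types, 2 are above 0 on both and 3 differ in sign.

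The 5 shared probe sets below 0 on both types were those of Hoxa5, Hoxa9 (both), Meis1 and Pbx3, and the 2 above 0 were of Pbx2. Over all shared probe sets 29.3% were below 0 on both types and 28.5% above.

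Other homeobox genes of the Hox and TALE classes gave no call. Of 35 other Hox genes 27 had a shared probe set, but only Hoxa11, Hoxb4 and Hoxc6 (3 genes) were above the filter, with log2 ratios from -0.16 to 0.13. Of 9 other TALE genes and TALE-associated genes 4 were tested, with 0 called in either direction by limma. At an unadjusted p under 0.05 the counts were 0 of these Hox genes and 1 of the TALE and TALE-associated genes. That 1 was the TALE-associated Pbxip1, whose protein binds Pbx, at 0.40 ± 0.15 (limma adjusted p = 0.198). Over all tested genes 9.95% were lower and 9.55% higher at that level, and 2.34% and 3.26% after adjustment.

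Regulators that set Hox chromatin were mostly above the filter and were not called. Of 32 genes 26 were tested, with log2 ratios from -0.30 to 0.40 and a median of -0.02, beside a median of -0.01 over all tested genes. The list gave 0 calls by limma and 0 at an unadjusted p under 0.05. Over all tested genes 2.34% were called lower and 3.26% higher, and 9.95% and 9.55% at the unadjusted level. Kmt2a, the methyltransferase that keeps Hox genes on, read 450.8 and 306.1 in Icsbp-deficient GMP against 495.9 and 241.2 in wild type GMP, a mean of 0.10 ± 0.17 (adjusted p = 0.805). Men1, its adaptor protein, was at -0.27 ± 0.14 (adjusted p = 0.363), and Ezh2, the Polycomb methyltransferase that silences Hox genes, was at -0.26 ± 0.13 (adjusted p = 0.331).

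Genes reported elsewhere as targets of Hoxa9 and Meis1 changed in both directions. Of 22 genes 15 were tested, of which 2 fell and 2 rose, beside 2.34% of all tested genes called lower and 3.26% higher. At an unadjusted p under 0.05 the counts were 4 lower and 3 higher, beside 9.95% and 9.55% of all tested genes. The list median was -0.07. Cd34, a surface protein of stem and progenitor cells, read 819.4 and 810.8 in Icsbp-deficient GMP against 2625 and 3032 in wild type GMP, and fell by 1.73 ± 0.13 (limma adjusted p = 0.000134). Sox4, a transcription factor of early progenitors, fell by 0.77 ± 0.13 (adjusted p = 0.00884). Fos, an immediate early factor, rose by 1.08 ± 0.18 (adjusted p = 0.00884), and Id2, an inhibitor of E proteins, rose by 0.85 ± 0.20 (adjusted p = 0.044).

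Several of the best known target genes did not pass. Myb, a factor of progenitor growth, read 8421 and 11315 in Icsbp-deficient GMP against 8378 and 10647 in wild type GMP (-0.08 ± 0.09, adjusted p = 0.705). The cytokine receptor Flt3 was at -0.05 ± 0.18 (adjusted p = 0.924), and the factors Lmo2 and Myc were at -0.07 ± 0.11 and -0.02 ± 0.12. Of 8 genes reported as Hoxa10 targets 3 were tested and 1 rose (3.26% of all tested genes did), Cybb, the catalytic subunit of the phagocyte oxidase. It read 1137 and 683.8 in Icsbp-deficient GMP against 388.9 and 345.0 in wild type GMP, a log2 ratio of 1.17 ± 0.17 (adjusted p = 0.00404). The cell cycle inhibitor Cdkn1a was at 0.64 ± 0.19 (adjusted p = 0.0876).

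**Figure D4:**
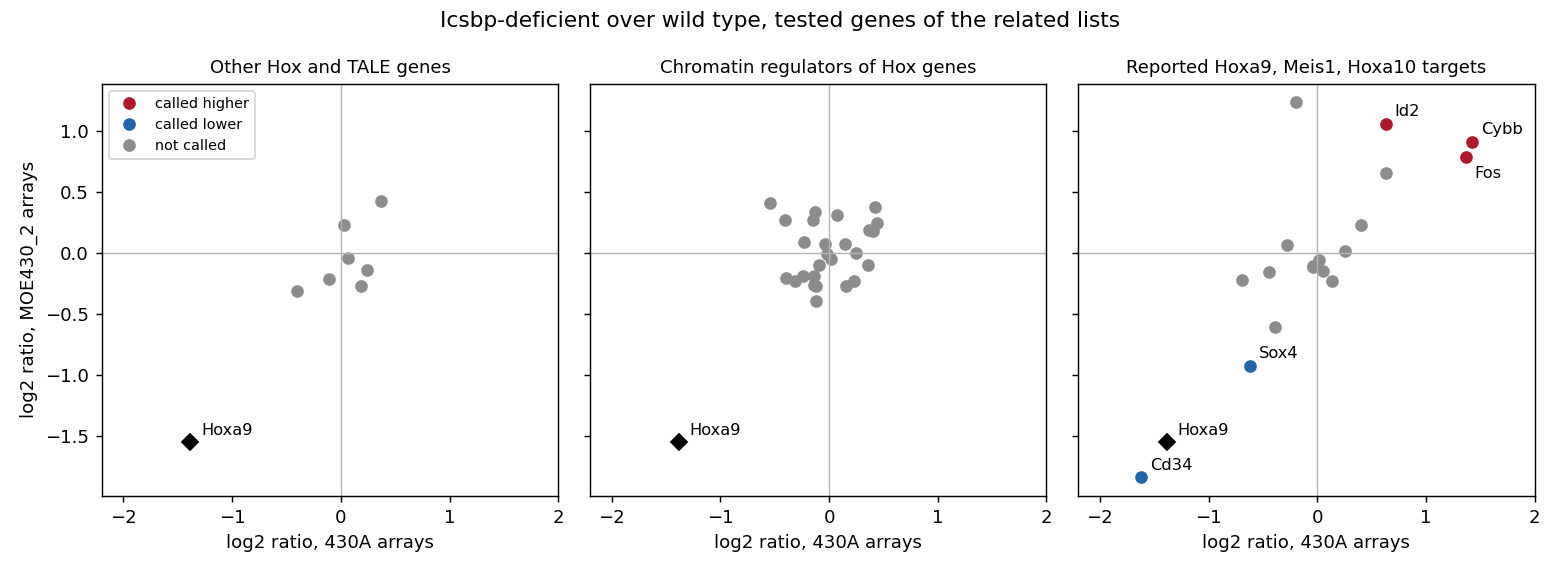
Log2 ratios of Icsbp-deficient over wild type GMP on the 430A (x axis) and MOE430_2 (y axis) arrays for the tested genes of the related lists, each point 1 gene by the brightest of its tested probe sets, with called genes named and coloured and Hoxa9 as a black diamond. The Hox, TALE and chromatin regulator genes are not called, while Cd34 and Sox4 are lower and Fos, Id2 and Cybb higher.

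The 5 genes whose pair of ratios lay nearest to that of Hoxa9 1455626_at were Armcx2, Cd24a, Dach1, Igha and Stx3. Nearness was the Euclidean distance between the pairs of log2 ratios on the 2 array types, over the 13576 tested probe sets, and it ran from 0.08 to 0.20. Cd24a, a surface glycoprotein of immature blood cells, read 1360 and 2521 in Icsbp-deficient GMP against 3924 and 7688 in wild type GMP, with ratios of -1.49 and -1.66. Dach1, a nuclear cofactor, read 70.6 and 3.8 in Icsbp-deficient GMP against 255.7 and 103.8 in wild type GMP, and at a signal of 3.8 its ratio is set by the added 50, so its place among the 5 rests on that choice. With 2 ratios a gene, this likeness describes size and sign only.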

How the data were processed

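The authors deposited linear signal intensities, 1 for each probe set of an array. Per the submitters' processing notes, those of the MOE430_2 arrays involved GCOS, while for the 430A arrays the software, and for all arrays the settings, are not given in the sources. Per the labels' protocols, labelling used 5 µg of total RNA and an ENZO kit for the Icsbp-deficient 430A sample and 1 to 2 µg with a one-cycle kit for both MOE430_2 samples, and the wild type 430A kit is not given, so kit and genotype cannot be told apart on the 430A type.

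From the intensities, signals were scaled, an offset of 50 added, log2 taken and the arrays of each type quantile normalized against each other. Probe sets under the 40th percentile of the mean over the 4 arrays were not tested, which left 13576 of 22626. Those on the MOE430_2 array alone were scaled only. limma 3.58.1 in R 4.3.3 was run over all tested probe sets (array type as a block, intensity trend, two-sided, Benjamini-Hochberg over all of them, threshold 0.05), with 1 residual degree of freedom a probe set. Array type was the block because signals were made comparable only within a type. With 4 arrays, the number of arrays limits the precision. The variance behind each p-value and moderated standard error combines this 1 degree of freedom with a prior from all tested probe sets, of median 8.894 degrees of freedom. They therefore rest mostly on the spread of other probe sets, not on that between preparations for the gene itself. On simulated data for this comparison (13576 probe sets) 99 of 100 changes of 1 log2 unit and 100 of 100 of 2 units were recovered, with 19 false calls among 218. The simulation draws independent noise with the moderated spread of the same limma fit. Its recovery is therefore partly built in, and it does not carry array-wide differences.

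Symbols come from the platform annotation, updated through RefSeq (GRCm38.p6), where 20351 of 20380 probe sets with 1 symbol matched, while 691 had several symbols and 1555 are unnamed here. The members, the gene lists and their rules were chosen with earlier results of these data known. The named genes are every member probe set, the called genes of each pathway list, and the 5 genes nearest to Hoxa9. Besides these, Men1, Ezh2, Kmt2a, Myb, Flt3, Lmo2, Myc, Cdkn1a, Pbxip1 and the marker genes given by name were named after their values were seen. The design text describes 1 more preparation of Icsbp-deficient GMP, not analysed here.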

Additional observations from a re-analysis of the deposited data

How the results depend on the processing

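In all, 8 settings kept array type as a block: scaling alone, cyclic loess, the values as deposited with the offset, an offset of 16, a floor of 50, no filter, a filter at the 60th percentile and no intensity trend. In these, 1 member probe set was called lower (Hoxa9 1455626_at, log2 ratio from -1.64 to -1.29) and 0 higher, and every tested member kept its direction. The ratio of Pbx3 was -1.002 with an offset of 16 and -0.37 with the values as deposited, and its adjusted p ran from 0.118 to 0.507 over these settings. At the 60th percentile 4 member probe sets were tested, without those of Pbx3 and Pbx2 1449261_at. Calls over all probe sets numbered 696 in the main setting, 267 without the trend, 266 without the filter, 397 with the values as deposited and 1 without the block, where 0 members were called lower.

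Leaving out 1 array in turn left no residual degree of freedom with the block, so it was run without it, and the ratio then also carries the difference between array types. Members called lower ranged from 0 to 1. The ratio ranged from -1.16 to 0.0001 for Hoxa9 1421579_at, from -1.81 to -1.12 for Hoxa9 1455626_at, from 0.13 to 0.75 for Pbx2 1418894_s_at, from -0.0198 to 0.38 for Pbx2 1418893_at, from -0.71 to 1.03 for Pbx2 1449261_at (-0.38 without the wild type MOE430_2 array) and from -1.51 to 0.22 for Pbx3 (0.03 without the wild type 430A array). Weak signal limits Hoxa5, Hoxa7, Hoxa10 and Meis1, which lay under the filter.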
